A study of Mus musculus with 15 samples.

Results

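The endothelial identity genes examined here were Pecam1, Cdh5, Cldn5, Esam, Erg, Sox17, Sox18, Emcn, Robo4 and Egfl7, 10 of the 37681 rows of the gene count table. They were taken by gene symbol as genes known to mark endothelium. All 10 passed the filter on low counts and stood among the 15134 genes tested. The study sequenced polyadenylated RNA of the thoracic aorta from wild-type adult male C57BL/6 mice aged 10 to 12 weeks. Each mouse received 100 µL by gavage and was killed 6 h later, at zeitgeber time 11 h (hours after lights on). The celecoxib group (n = 5) received 30 mg/kg celecoxib, the rofecoxib group (n = 5) received 10 mg/kg rofecoxib, and the vehicle group (n = 5) received PEG-400 alone. Both agents inhibit cyclooxygenase-2, the inducible enzyme of prostanoid synthesis. Celecoxib is a diaryl pyrazole with a sulfonamide and rofecoxib a diaryl furanone with a methyl sulfone, and they were given at different doses, so the contrast between them sets the groups as dosed side by side.

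Endothelium lines the lumen of the aorta as a single cell layer, over a much larger mass of smooth muscle. Its cells hold together through adherens junctions, built on vascular endothelial cadherin, and tight junctions, and they keep their identity through transcription factors of the ETS and SOX families. Endothelium also makes prostacyclin, through cyclooxygenases, and nitric oxide, which relax the vessel wall. In whole aorta, fewer endothelial cells and less RNA per endothelial cell cannot be told apart.

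ETS factors such as Erg bind sequences around a GGAA core, and SOX factors such as Sox17 and Sox18 bind a core of their own, so the stretch just upstream of the start site is shown for the 5 members that matched the RefSeq promoter table. That table (GRCm38.p6) held 9 windows for Cldn5, Erg, Emcn, Robo4 and Egfl7. The 250 bases before each start were searched on both strands for the ETS core with flanking letters, AGGAAG, and for the SOX core, ACAAT. Neither pattern contains the other. Among all 32851 windows of that length in the table, 29.5% held the ETS pattern and 27.7% held the SOX pattern. One window per gene is printed 5′ to 3′ on the gene's strand, with matches on either strand in capitals, and the last base is the one before the start site. These windows are on GRCm38.p6, while the gene positions given below are on mm9.
Robo4 (chr9:37401722-37401971, plus strand): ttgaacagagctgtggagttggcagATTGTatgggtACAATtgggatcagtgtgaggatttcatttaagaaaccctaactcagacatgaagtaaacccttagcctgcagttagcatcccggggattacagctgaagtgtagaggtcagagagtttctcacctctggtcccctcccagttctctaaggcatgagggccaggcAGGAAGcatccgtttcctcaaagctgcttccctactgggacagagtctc
Emcn (chr3:137340828-137341077, plus strand): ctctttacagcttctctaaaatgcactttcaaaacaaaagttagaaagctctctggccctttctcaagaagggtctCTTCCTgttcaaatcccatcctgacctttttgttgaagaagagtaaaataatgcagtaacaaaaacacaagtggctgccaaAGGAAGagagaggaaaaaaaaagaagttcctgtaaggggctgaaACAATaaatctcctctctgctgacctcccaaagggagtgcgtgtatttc
Egfl7 (chr2:26580833-26581082, plus strand): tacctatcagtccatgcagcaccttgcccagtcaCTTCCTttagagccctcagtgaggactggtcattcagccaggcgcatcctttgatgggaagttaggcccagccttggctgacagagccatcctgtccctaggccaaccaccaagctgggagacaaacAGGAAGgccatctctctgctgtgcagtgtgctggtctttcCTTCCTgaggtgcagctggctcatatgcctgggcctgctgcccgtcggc
Cldn5 (chr16:18776597-18776846, plus strand): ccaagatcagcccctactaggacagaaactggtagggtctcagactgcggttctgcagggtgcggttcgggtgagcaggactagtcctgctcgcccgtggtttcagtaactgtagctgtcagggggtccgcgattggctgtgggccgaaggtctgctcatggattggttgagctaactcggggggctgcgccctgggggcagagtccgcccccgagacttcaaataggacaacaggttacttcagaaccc
Erg (chr16:95586594-95586843, minus strand): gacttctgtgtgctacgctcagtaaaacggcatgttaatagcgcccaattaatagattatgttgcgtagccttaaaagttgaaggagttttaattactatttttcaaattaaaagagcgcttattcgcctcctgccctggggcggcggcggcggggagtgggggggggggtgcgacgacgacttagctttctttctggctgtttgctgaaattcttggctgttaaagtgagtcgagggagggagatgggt
The Robo4 window held 1 ETS match, at bases -49 to -44 from the start site, and 2 SOX matches. The Emcn window held 2 ETS matches, of which the nearer lay at -93 to -88, and 1 SOX match at -49 to -45. The Egfl7 window held 3 ETS matches, the nearest at -49 to -44, and 0 SOX matches. The printed Cldn5 and Erg windows held 0 of either. Of the 2 further Erg start sites, 1 held a match of each kind and 1 held 0, and of the 2 further Egfl7 start sites, 1 held an ETS match and 1 held 0. A match describes letters in a window; no binding was measured.

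The 15 libraries held between 30937046 and 30967115 counts, a spread of 0.0971% of their mean, and TMM scaling factors lay between 0.953 and 1.04. Per the labels the 5 libraries of a group are biological replicates. Smooth muscle genes had the highest summed level of the marker lists. The 12 genes of the smooth muscle list summed to between 48514 and 64674 CPM (counts scaled to library size) in vehicle aortas, against 1119 to 1583 CPM for the 24 genes of a wider endothelial list without the members. Adipocyte genes were present in every group and are given beside the members below. The 37 mitochondrial rows were at 0 in every library.

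Per length, Pecam1 was the most abundant member and Sox17 the least. In vehicle aortas Pecam1 (PECAM-1 or CD31, an adhesion molecule of endothelial borders, also on platelets and leukocytes) stood at 54.2 ± 9.81 CPM per kb of exon (SD, n = 5). Erg stood at 24.2 ± 2.16, Esam at 21.6 ± 0.969, Cdh5 at 21.3 ± 2.21 and Cldn5 at 18.4 ± 2.47 CPM per kb. Egfl7 (13.6 ± 1.05) and Sox18 (10.4 ± 2.71) came next, and Robo4 (3.31 ± 0.678), Emcn (3.05 ± 0.799) and Sox17 (2.23 ± 0.352) were lowest. Among neighbours in this vehicle order, the ranges over 5 animals were apart between Pecam1 and Erg, between Cldn5 and Egfl7 and between Sox18 and Robo4. The other 6 neighbouring pairs overlapped. Pecam1 headed the order and Sox17 closed it in the celecoxib and rofecoxib groups too.

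**Figure D1:**
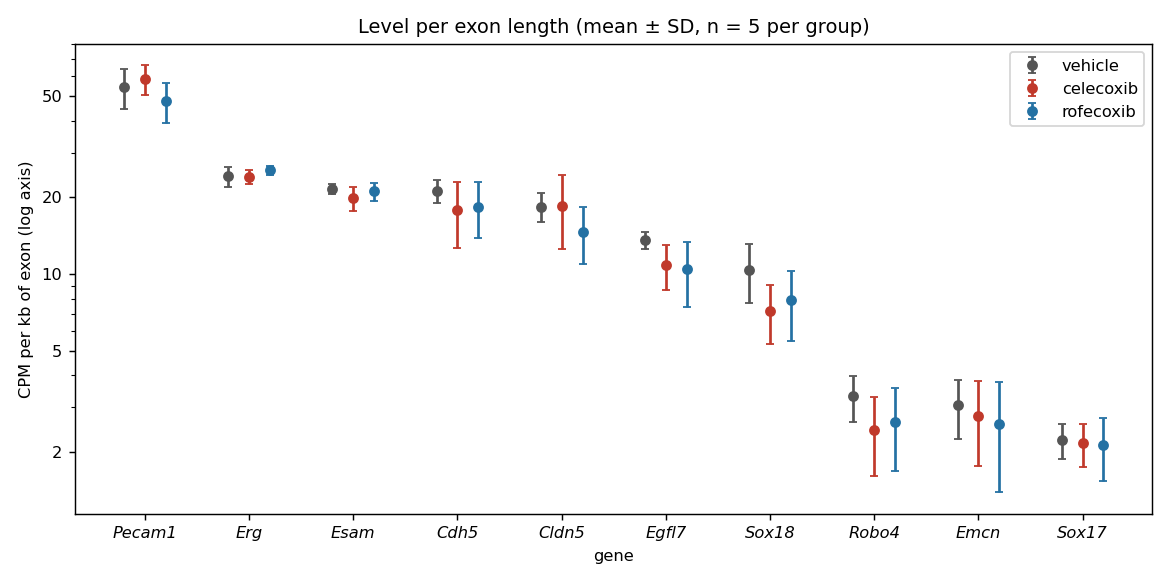
Level of each member per kb of exon (CPM per kb, log axis) in the vehicle, celecoxib and rofecoxib groups, from 15 libraries in all. Each point is a group mean and each bar its SD. Pecam1 lies above the other 9 members in all 3 groups, and Robo4, Emcn and Sox17 lie lowest.

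No member differed between groups at an adjusted p under 0.05 in any comparison. With celecoxib, 0 of 10 members were called against vehicle (Benjamini-Hochberg adjusted p over 15134 genes, quasi-likelihood test of edgeR), where 0% of all genes were called. The log2 fold changes ran from -0.53 for Sox18 to 0.11 for Pecam1, with 8 below 0 and 2 above, and their median was -0.13 beside 0.0051 over all genes and 48.6% of all genes below 0. At an unadjusted p under 0.05 stood 1 member, Sox18, beside 12.5% of all genes. With rofecoxib, 0 of 10 members were called (background 0%). The log2 fold changes against vehicle ran from -0.40 for Sox18 to 0.081 for Erg, 9 below 0 and 1 above, with a median of -0.23 beside -0.00067 over all genes and 50.3% of all genes below 0. At an unadjusted p under 0.05 stood 0 members, beside 5.18% of all genes. These comparisons share the 5 vehicle libraries. Between celecoxib and rofecoxib, 0 members were called (background 0%), 5 lay below 0 and 5 above, beside 48.2% of all genes below 0, and the median was -0.011. There 0 members had an unadjusted p under 0.05, beside 6.96% of all genes.

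Ranges of celecoxib and vehicle aortas overlapped for all 10 members, as did those of rofecoxib and vehicle and those of celecoxib and rofecoxib. Over all genes tested, 1.3%, 1.16% and 1.32% had ranges that did not overlap in these 3 comparisons. A test for any difference among the 3 groups also called 0 members (background 0%); the smallest unadjusted p in it was 0.11, for Egfl7 and Sox18, and 9.32% of all genes had an unadjusted p under 0.05. DESeq2 called 0 members but 129 of all genes for celecoxib against vehicle and 20 for celecoxib against rofecoxib, and limma-voom called 0 members and 0 genes in the 3 comparisons.

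**Figure D2:**
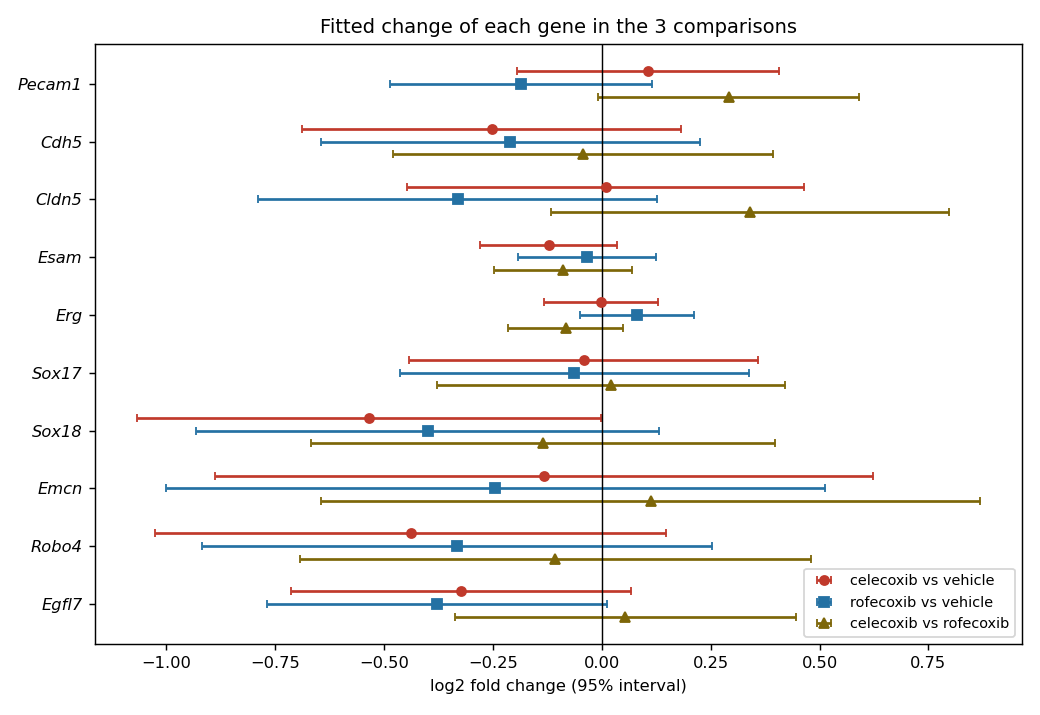
Log2 fold change of each member with its 95% interval in the comparisons of celecoxib with vehicle, rofecoxib with vehicle and celecoxib with rofecoxib. Most points against vehicle lie left of 0, Sox18 with celecoxib lies farthest left at -0.53, and the intervals are narrow for Erg and Esam and wide for Emcn.

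The medians rested in part on single libraries. Celecoxib 3 was the lowest of all 15 libraries for 3 members and rofecoxib 2 for 5, while vehicle 4 was the highest for 5 members and the lowest for Erg. Without celecoxib 3 the median against vehicle was -0.022, without vehicle 4 it was -0.070, and without celecoxib 5 it was -0.20. The rofecoxib median was -0.11 without rofecoxib 2, -0.14 without vehicle 4 and -0.31 without rofecoxib 3. Leaving out celecoxib 3 and rofecoxib 2 together, a choice made after seeing the data, gave medians of -0.021 for celecoxib and -0.11 for rofecoxib, with 0 members at an unadjusted p under 0.05. Celecoxib 2, celecoxib 3 and rofecoxib 4 lay below the vehicle median in all 10 members and rofecoxib 2 in 9.

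**Figure D3:**
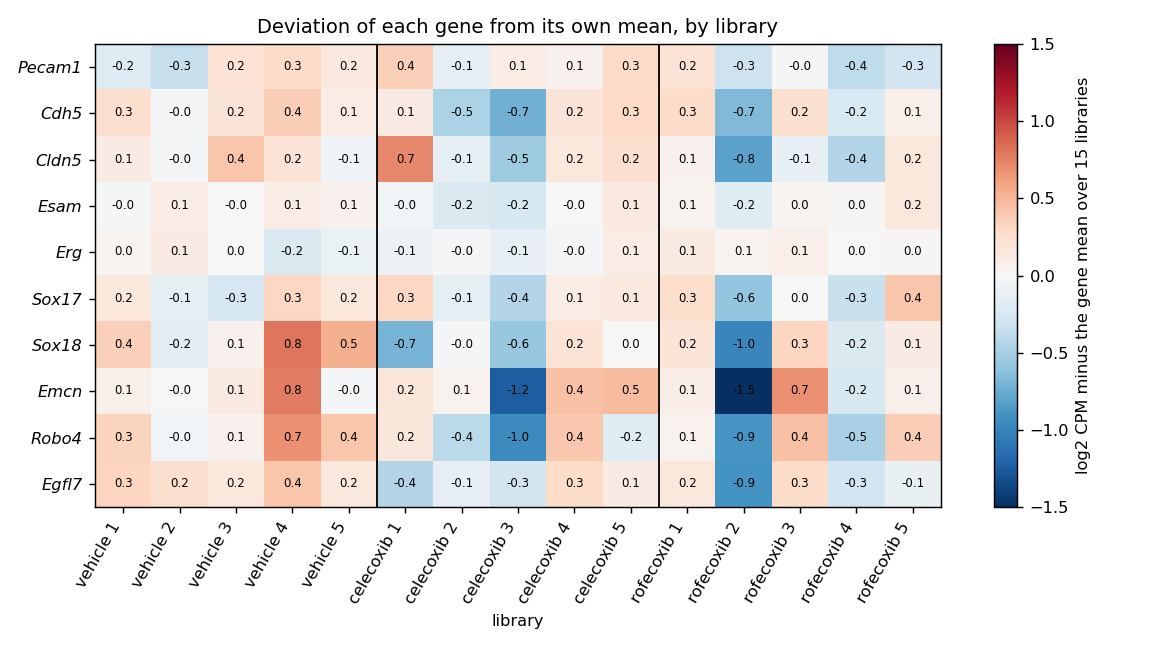
Difference of each member from its own mean over the 15 libraries (log2 CPM) in each library, by group. Celecoxib 3 and rofecoxib 2 show the lowest values across most members, vehicle 4 the highest in 5 members, and Erg stays near 0 throughout.

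Among the junction and adhesion genes, Cdh5 encodes vascular endothelial cadherin, the adherens junction protein of endothelium (chromosome 8, bases 106625323 to 106668604, plus strand, on mm9). Vehicle aortas 1 to 5 held Cdh5 at 93.4, 76.9, 89.8, 102 and 85.1 CPM. Celecoxib aortas 1 to 5 held it at 85.3, 56.3, 47.5, 89.8 and 96.3 CPM and rofecoxib aortas at 94.8, 49.4, 93.0, 67.0 and 82.5 CPM. In each treated group 3 of the 5 aortas lay inside the vehicle range, and celecoxib 2, celecoxib 3, rofecoxib 2 and rofecoxib 4 lay below it. Group means were 89.4 ± 9.27, 75.0 ± 21.7 and 77.3 ± 19.1 CPM (SD, n = 5 each). The log2 fold change of Cdh5 against vehicle was -0.25 (SE 0.20) with celecoxib and -0.21 (SE 0.20) with rofecoxib. The celecoxib value of Cdh5 was -0.12 without celecoxib 3 and -0.16 without celecoxib 2, and the rofecoxib value was -0.078 without rofecoxib 2. The spread of Cdh5 over animals was wider in both treated groups, with coefficients of variation of 28.9% and 24.7% beside 10.4% in vehicle; this difference in spread was not tested.

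Pecam1 (chromosome 11, bases 106515329 to 106612144, minus strand, on mm9) was the member with the largest share of counts. In vehicle aortas 1 to 5 Pecam1 stood at 286, 259, 382, 396 and 364 CPM. In celecoxib aortas Pecam1 stood at 422, 299, 355, 343 and 399 CPM, and in rofecoxib aortas at 379, 264, 321, 251 and 269.5 CPM. The vehicle values spanned most of the range of both treated groups, and only celecoxib 1, celecoxib 5 and rofecoxib 4 fell outside them. All 5 celecoxib values lay above the rofecoxib median, and the celecoxib to rofecoxib log2 fold change was 0.29 (SE 0.14, 95% interval -0.0086 to 0.59; unadjusted p = 0.0561, adjusted p = 0.707, edgeR's quasi-likelihood test). Against vehicle the Pecam1 log2 fold changes were 0.11 (SE 0.14) with celecoxib and -0.19 (SE 0.14) with rofecoxib. Leaving out 1 library at a time, the celecoxib value of Pecam1 ran from 0.036 (without vehicle 2) to 0.18 (without celecoxib 2) and the rofecoxib value from -0.29 (without rofecoxib 1) to -0.12 (without vehicle 4). A row for U3, a small nucleolar RNA, lies inside the Pecam1 interval and held 0 to 1 counts.

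Cldn5 encodes claudin-5, the main tight junction claudin of endothelium (chromosome 16, bases 18776738 to 18778555, plus strand, on mm9). Its CPM values in vehicle aortas 1 to 5 were 25.8, 23.4, 31.5, 27.2 and 22.7. With celecoxib they were 39.1, 21.6, 16.3, 26.4 and 28.0, and with rofecoxib 24.7, 13.5, 21.7, 17.4 and 26.4. Celecoxib 1 was the highest of all 15 libraries for Cldn5 and rofecoxib 2 the lowest, and with celecoxib 3 the celecoxib group extended beyond the vehicle range on both sides. The log2 fold change was 0.0094 (SE 0.21) for celecoxib against vehicle, a value that turned negative without scaling factors (-0.023), in limma-voom (-0.044) and with the replicate number as a block (-0.032). Rofecoxib against vehicle gave -0.33 (SE 0.21; unadjusted p = 0.143, adjusted p = 1.0, edgeR's quasi-likelihood test), and celecoxib against rofecoxib gave 0.34 (95% interval -0.12 to 0.80). The former was -0.20 without rofecoxib 2, and the latter was 0.15 without celecoxib 1 and 0.22 without rofecoxib 2.

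Esam, an endothelial cell adhesion molecule of the tight junction (chromosome 9, bases 37335461 to 37346106, plus strand, on mm9), varied little between animals. Vehicle aortas held Esam at 58.8, 64.6, 59.4, 64.7 and 62.4 CPM. Celecoxib aortas held Esam at 57.7, 51.4, 50.5, 59.4 and 65.7 CPM and rofecoxib aortas at 61.9, 52.7, 61.6, 60.3 and 66.3 CPM. Celecoxib 1, 2 and 3 and rofecoxib 2 lay below the lowest vehicle aorta. The log2 fold change with celecoxib was -0.12 (SE 0.074, 95% interval -0.28 to 0.036; unadjusted p = 0.121, adjusted p = 0.528, edgeR's quasi-likelihood test), and with rofecoxib -0.033 (95% interval -0.19 to 0.12). Without celecoxib 3 and rofecoxib 2 the rofecoxib value of Esam was 0.020 and the celecoxib value -0.073, and without celecoxib 2 the celecoxib value was -0.078.

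**Figure D4:**
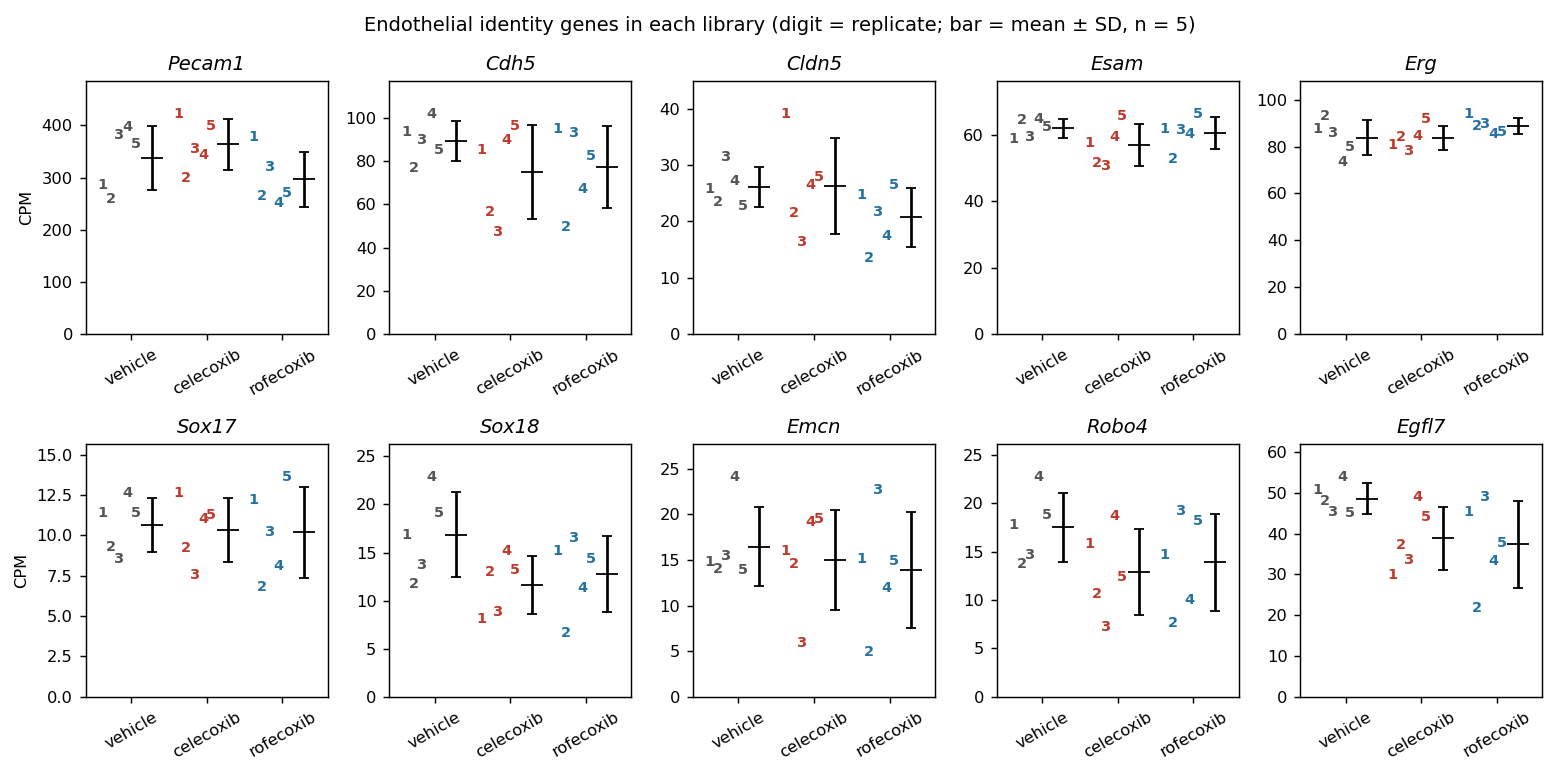
CPM of each of the 10 members in vehicle, celecoxib and rofecoxib aortas, with the library number as each point and the group mean ± SD. All groups overlap in every panel, and the digits 3 under celecoxib and 2 under rofecoxib lie low in most panels.

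Among the transcription factors, Sox18 had the largest difference from vehicle in both treated groups. Sox18 is a SOX factor of blood and lymphatic endothelium (chromosome 2, bases 181404339 to 181406547, minus strand, on mm9). Sox18 in vehicle aortas 1 to 5 was at 16.9, 11.7, 13.7, 22.9 and 19.1 CPM. Sox18 in celecoxib aortas was at 8.10, 13.0, 8.83, 15.1 and 13.2 CPM, and in rofecoxib aortas at 15.2, 6.64, 16.5, 11.3 and 14.4 CPM. All 5 celecoxib and all 5 rofecoxib aortas lay below the vehicle median of 16.9 CPM, yet the groups overlapped, because vehicle 2 and vehicle 3 lay among the treated values. The celecoxib to vehicle log2 fold change was -0.53 (SE 0.25, fold 0.691, 95% interval -1.07 to -0.0016), with an unadjusted p of 0.0494 and an adjusted p of 0.398 (edgeR's quasi-likelihood test). Rofecoxib against vehicle gave -0.40 (SE 0.25, fold 0.758; unadjusted p = 0.129, adjusted p = 1.0). The Sox18 value with celecoxib was -0.39 (unadjusted p = 0.138) without vehicle 4 and -0.64 without celecoxib 4, and the rofecoxib value was -0.23 without rofecoxib 2 and -0.26 without vehicle 4. Between the treated groups, the Sox18 log2 fold change was -0.13 (95% interval -0.67 to 0.40), and -0.30 to -0.026 with 1 library left out at a time.

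Sox17, the related SOX factor of arterial endothelium (chromosome 1, bases 4480807 to 4486696, minus strand, on mm9), differed less from vehicle in both groups. Its means were 10.6 ± 1.68 CPM with vehicle, 10.3 ± 1.99 CPM with celecoxib and 10.2 ± 2.82 CPM with rofecoxib (SD, n = 5 each). Over single animals Sox17 ran from 8.52 to 12.6 CPM in vehicle, from 7.52 to 12.6 with celecoxib and from 6.77 to 13.6 with rofecoxib, with celecoxib 3 and rofecoxib 2 lowest in their groups. Against vehicle the Sox17 log2 fold changes were -0.042 (95% interval -0.44 to 0.36) and -0.063 (95% interval -0.46 to 0.34), and they were 0.064 and 0.062 without those libraries.

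Erg, an ETS factor of endothelium from its specification into adult life (chromosome 16, bases 95580574 to 95808402, minus strand, on mm9), was the steadiest member. Erg in vehicle aortas was at 87.4, 93.0, 85.7, 73.5 and 79.7 CPM. Erg in celecoxib aortas was at 80.5, 84.0, 78.1, 84.4 and 91.8 CPM, and in rofecoxib aortas at 93.9, 88.6, 89.5, 85.3 and 86.2 CPM. The lowest of the 15 was vehicle 4, the library that was highest for 5 other members, and rofecoxib 2 was its group's median. The highest Erg value was 1.28 times the lowest, and the coefficient of variation over 15 libraries was 6.70%. Celecoxib against vehicle gave a log2 fold change of -0.0014 (SE 0.062, 95% interval -0.13 to 0.13), whose sign turned with RLE and upper quartile scaling and under other filters and tools. Rofecoxib against vehicle gave 0.081 (95% interval -0.050 to 0.21).

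Among the surface and secreted proteins, Emcn encodes endomucin, a sialomucin of the endothelial surface that is best known from capillaries and veins (chromosome 3, bases 137003829 to 137095351, plus strand, on mm9). Endomucin transcripts in vehicle aortas were at 14.8, 14.0, 15.5, 24.1 and 13.9 CPM. Treated aortas held Emcn at 16.0, 14.6, 5.94, 19.1 and 19.5 CPM with celecoxib and at 15.1, 4.91, 22.7, 11.9 and 14.9 CPM with rofecoxib. Celecoxib 3 and rofecoxib 2 stood apart from the other 13 libraries, and the highest value was 4.92 times the lowest, the widest ratio among the members. The log2 fold changes were -0.13 (95% interval -0.89 to 0.62) with celecoxib and -0.24 (95% interval -1.001 to 0.51) with rofecoxib, and 0.081 and -0.020 without these libraries. The celecoxib value of Emcn was 0.051 without vehicle 4, -0.22 without celecoxib 4 and -0.23 without celecoxib 5, and the rofecoxib value was -0.062 without vehicle 4 and -0.48 without rofecoxib 3.

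Robo4, a roundabout receptor found in endothelium that stabilises the vascular barrier (chromosome 9, bases 37209280 to 37221810, plus strand, on mm9), was at 17.7, 13.7, 14.7, 22.8 and 18.8 CPM in vehicle aortas. With celecoxib Robo4 was at 15.8, 10.6, 7.25, 18.7 and 12.4 CPM, and with rofecoxib at 14.6, 7.61, 19.2, 10.1 and 18.2 CPM. Celecoxib 2, 3 and 5 and rofecoxib 2 and 4 lay below the vehicle range, and the rest lay inside it. Its log2 fold change with celecoxib was -0.44 (SE 0.27, 95% interval -1.02 to 0.15; unadjusted p = 0.131, adjusted p = 0.545, edgeR's quasi-likelihood test). With rofecoxib it was -0.33 (SE 0.27, 95% interval -0.92 to 0.25). Without celecoxib 3 and rofecoxib 2 these values were -0.28 and -0.17, and without vehicle 4 the rofecoxib value was -0.21. The Robo4 and Emcn windows printed above both held matches of both kinds.

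Egfl7, a secreted protein of the endothelial matrix whose gene hosts the microRNA miR-126 (chromosome 2, bases 26435332 to 26448842, plus strand, on mm9), had the smallest unadjusted p with rofecoxib. Vehicle aortas held Egfl7 at 50.6, 48.1, 45.2, 53.9 and 45.1 CPM. Celecoxib aortas held Egfl7 at 30.0, 37.3, 33.6, 49.0 and 44.1 CPM and rofecoxib aortas at 45.2, 21.7, 49.0, 33.2 and 37.7 CPM. Celecoxib 1, 2, 3 and 5 and rofecoxib 2, 4 and 5 lay below the lowest vehicle aorta, and celecoxib 4, rofecoxib 1 and rofecoxib 3 lay inside the vehicle range. The log2 fold change was -0.38 (SE 0.18, 95% interval -0.77 to 0.012; unadjusted p = 0.0566, adjusted p = 0.984, edgeR's quasi-likelihood test) with rofecoxib and -0.32 (SE 0.18; unadjusted p = 0.0968, adjusted p = 0.495) with celecoxib. The rofecoxib value was -0.23 without rofecoxib 2.

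Counts of Egfl7 are uncertain because its interval overlaps that of Agpat2, an acyltransferase of lipid synthesis that is abundant in fat (bases 26448375 to 26460139), and the use of strand in counting is not given in the sources used here. Agpat2 was at 101 ± 52.9 CPM with vehicle, 40.4 ± 17.6 with celecoxib and 58.6 ± 15.8 with rofecoxib (SD, n = 5 each). Its log2 fold changes were -1.32 and -0.78, in the same direction as those of Egfl7; their part in the Egfl7 values was not tested. The Mir126 row inside Egfl7 held 0 counts in all libraries, as did a further overlapping row.

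Between animals, the relations at an adjusted permutation p under 0.05 lay among 8 of the members, and 0 included Pecam1 or Erg. Of the 45 pairs of members, 21 had a Pearson r with a Benjamini-Hochberg adjusted permutation p under 0.05 over the 15 libraries, all positive, and the p-values were adjusted over the 105 relations computed. All 21 fell among the 28 pairs of the 8 genes other than Pecam1 and Erg. These 8 were set apart after the r values were seen, so that count follows from the choice. The r of the 28 pairs ran from 0.36 to 0.89 with a median of 0.74, the 7 pairs of Emcn included. Cdh5, Emcn and Robo4 each took part in 7 of the 21, Sox17 in 5 and the other 4 genes in 4 each. Sox18 and Egfl7 had r = 0.89 (adjusted permutation p = 0.00105; Spearman rho = 0.84, adjusted permutation p = 0.0115; n = 15), and r = 0.75 without the 2 libraries farthest from the Sox18 median. Cdh5 and Robo4 had r = 0.88 (adjusted permutation p = 0.00315; rho = 0.63, adjusted permutation p = 0.068; n = 15), and r = 0.72 without celecoxib 3 and rofecoxib 2. Cdh5 and Emcn had r = 0.62 over the 13 libraries other than celecoxib 3 and rofecoxib 2, which stand apart for Emcn. Pecam1 and Erg took part in 0 of the 21 pairs. The median r with the other 9 members was 0.31 for Pecam1 and -0.079 for Erg. Pecam1 with Cldn5 had r = 0.59 (adjusted permutation p = 0.0616, n = 15), above the lowest r of the 28 pairs.

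Much of this shared variation rested on celecoxib 3 and rofecoxib 2. For each pair, the 2 libraries farthest from the median of 1 gene were left out, that of the gene named first in the opening list. Then 1 of the 45 pairs passed, Sox18 with Robo4 (r = 0.91, adjusted permutation p = 0.00315, n = 13). For that pair the libraries left out were celecoxib 1 and rofecoxib 2, and without celecoxib 3 and rofecoxib 2 its r was 0.63. Over the 13 libraries other than celecoxib 3 and rofecoxib 2, the 28 pairs had r from -0.26 to 0.80 with a median of 0.45. The tests over 13 libraries also rest on fewer values. With values centred on group means, 23 of the 45 pairs passed. All members share each library's total, so their values are not independent measures.

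**Figure D5:**
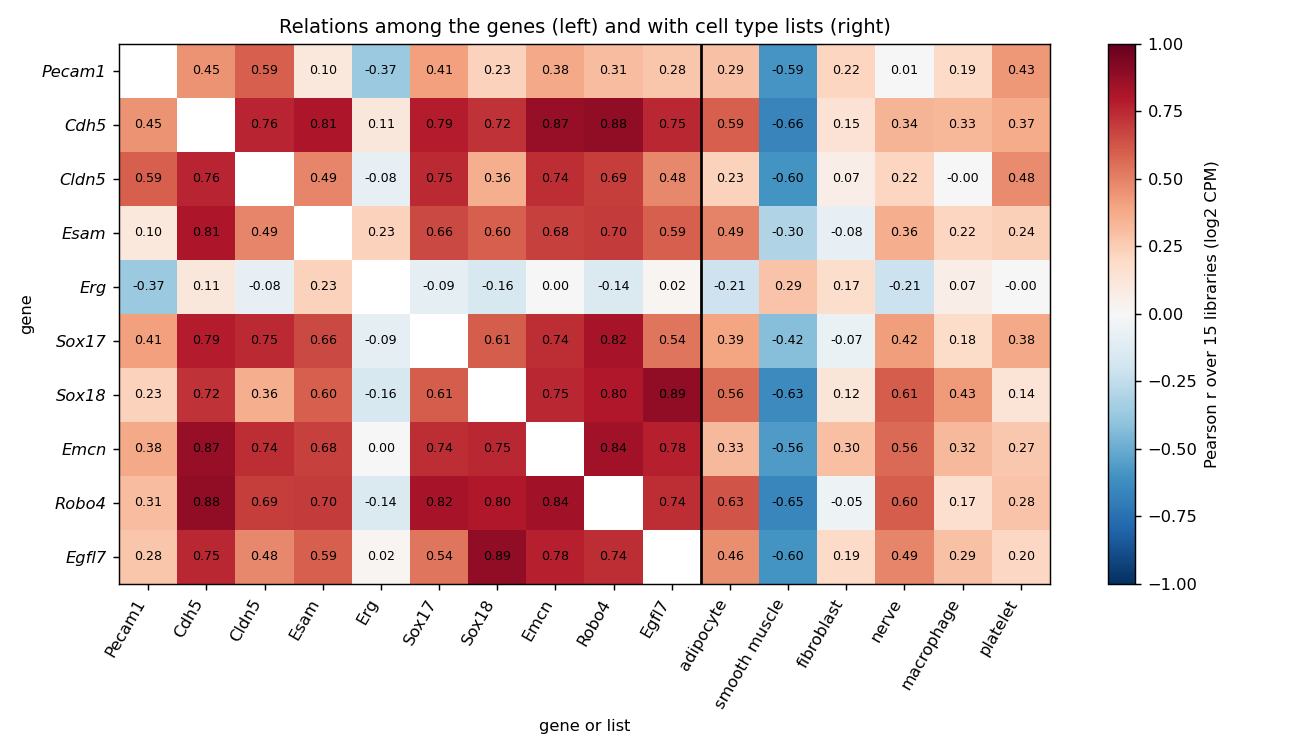
Pearson r over 15 libraries between the members, and between each member and the mean log2 CPM of 6 lists of other cell types. The block of 8 genes is positive throughout, Pecam1 and Erg stand outside it, and the values of Emcn include the libraries celecoxib 3 and rofecoxib 2, which stand apart for it.

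Markers of other cell types moved with some members. Of the 60 relations with the 6 lists, 2 had an adjusted permutation p under 0.05, both negative and with smooth muscle. Cdh5 had r = -0.66 with the mean of the 12 smooth muscle genes (adjusted permutation p = 0.0415; rho = -0.72, adjusted permutation p = 0.0449; n = 15), and -0.71 without the 2 libraries farthest from the list's median. Robo4 had r = -0.65 with it (adjusted permutation p = 0.0415; rho = -0.71, adjusted permutation p = 0.0449; n = 15), and -0.75 without those libraries. Over those 13 libraries the adjusted permutation p-values were 0.105 and 0.0954, and 0 of the 60 relations passed with the 2 farthest libraries left out. Neither relation passed with values centred on group means (adjusted permutation p = 0.0783 for Cdh5 and 0.0947 for Robo4) or without scaling factors (0.0584 and 0.0616). Other relations did: centred values gave 3 of the 60 (2 positive, 1 negative) and values without scaling factors 5 (3 positive, 2 negative). Smooth muscle with Pecam1 had the lowest r in both settings, -0.75 centred and -0.73 without scaling factors. The nerve list with Sox18 had the highest centred r, 0.69, and with Robo4 it had 0.66 centred. Uncentred and scaled, these 3 relations had r = -0.59, 0.61 and 0.60 (adjusted permutation p = 0.0616 each, n = 15). Sox18 had r = -0.63 with smooth muscle (adjusted permutation p = 0.0513, rho = -0.75, adjusted permutation p = 0.0449, n = 15). Celecoxib 3 and rofecoxib 2 held the highest smooth muscle sums of their groups, 62006 and 67334 CPM. With the adipocyte list Robo4 had r = 0.63 (adjusted permutation p = 0.0519; rho = 0.66, adjusted permutation p = 0.0523; n = 15), 0.61 without the 2 farthest and 0.52 with centred values. The 14 adipocyte genes summed to 1846 to 4670 CPM in vehicle, 818 to 2420 CPM with celecoxib and 1299 to 3184 CPM with rofecoxib. Their median log2 fold changes were -1.03 with celecoxib, where 13 of 14 lay below 0, and -0.55 with rofecoxib, where 14 of 14 did. Of the 14, 12 were lower with celecoxib and 3 with rofecoxib at an unadjusted p under 0.05, where 7.18% and 3.71% of all genes were, and 0 were called. None of the 14 was at 0 in all libraries. The part of smooth muscle and fat content in the members' values was not tested.

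Other genes of endothelium, from lists without the members, gave 0 calls in every comparison. In the list of 24 pan-endothelial genes 23 lay below 0 with celecoxib (median log2 fold change -0.20, beside 48.6% of all genes below 0), and 3 of them (Kdr, Myct1 and Arhgef15, named after their values were seen) had an unadjusted p under 0.05, where 7.18% of all genes were lower at that p. With rofecoxib 23 lay below 0 as well (median -0.17, beside 50.3% of all genes), 1 (Flt1, named likewise) at an unadjusted p under 0.05, where 3.71% of all genes were lower at that p. The list's sum was lowest of its group in celecoxib 3 (794 CPM) and in rofecoxib 2 (815 CPM). Within vehicle it was highest in vehicle 4 (1583 CPM). The 24 genes share each library and both comparisons share the vehicle libraries, so these counts are not of independent measures. By name, Vwf (von Willebrand factor) was at 172 ± 36.4 CPM with vehicle, 171 ± 72.1 with celecoxib and 149 ± 56.8 with rofecoxib. Eng (endoglin, a TGF-beta co-receptor) was at 161 ± 18.3, 140.3 ± 27.4 and 148 ± 18.5 CPM in the same order. Cd34 (a sialomucin of endothelium and progenitors) and Ptprb (VE-PTP, the phosphatase that acts on cadherin junctions) had log2 fold changes of 0.067 and -0.029 with celecoxib and -0.025 and -0.14 with rofecoxib.

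The transcription factor list, which holds other factors known from endothelium, had 14 of its 15 genes tested. Of these 10 lay below 0 with celecoxib (median -0.16) and 12 with rofecoxib (median -0.047). At an unadjusted p under 0.05, 1 was lower with celecoxib (Sox7, -0.73) and 1 with rofecoxib (Klf4, -0.27), both named after their values were seen, where 7.18% and 3.71% of all genes were lower. Ets2 and Ets1, which share the ETS domain with Erg, had log2 fold changes of 0.049 and -0.17 with celecoxib and -0.026 and -0.094 with rofecoxib. Mef2c was at 131 ± 9.45, 114 ± 23.5 and 142 ± 5.85 CPM with vehicle, celecoxib and rofecoxib, and Foxc2 at 52.8 ± 5.57, 53.3 ± 6.33 and 51.2 ± 2.21 CPM.

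Genes of arterial endothelium and genes of capillary and venous endothelium were kept as separate lists. Of 12 arterial genes 8 lay below 0 with celecoxib (median -0.11) and 10 with rofecoxib (median -0.18). At an unadjusted p under 0.05, 1 was lower with celecoxib (Hey1, log2 fold change -0.27) and 2 with rofecoxib (Hey1, -0.26, and Dll4, -0.56), where 7.18% and 3.71% of all genes were. These genes were named after their values were seen. The rofecoxib and vehicle ranges of Dll4, a Notch ligand, did not overlap, as was so for 1.16% of all genes. Its adjusted p with rofecoxib was 0.896 (edgeR's quasi-likelihood test). The most abundant arterial genes were Acvrl1 (ALK1, a BMP receptor), Jag1 (a Notch ligand), Efnb2 (ephrin-B2) and Sema3g. With celecoxib their log2 fold changes were 0.20, -0.064, -0.084 and -0.17, in this order. With rofecoxib they were -0.21, -0.061, 0.019 and -0.15. Of 11 capillary and venous genes tested, 9 lay below 0 with celecoxib (median -0.35) and 8 with rofecoxib (median -0.25). At an unadjusted p under 0.05, 3 were lower with celecoxib (Cd36, and, named after their values were seen, Cd300lg and Aplnr) and 0 with rofecoxib, beside the same 7.18% and 3.71% of all genes. Cd36, a fatty acid transporter of capillaries that adipocytes also express, was at 368 ± 100.3 CPM with vehicle, 215 ± 89.1 with celecoxib and 272 ± 93.8 with rofecoxib. Its celecoxib value had a log2 fold change of -0.78 (SE 0.29; unadjusted p = 0.0187, adjusted p = 0.319, edgeR's quasi-likelihood test). Aqp1, Nr2f2 and Ephb4 had -0.042, 0.14 and -0.17 with celecoxib. The difference between the arterial and the capillary lists was not tested.

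Partners of the junction proteins and of Robo4 lay on both sides of 0. Of 18 tested genes 7 lay below 0 with celecoxib (median 0.018, range -0.29 to 0.20) and 9 with rofecoxib (median -0.0020, range -0.37 to 0.31). At an unadjusted p under 0.05 stood 0 with celecoxib, beside 12.5% of all genes, and 1 with rofecoxib (Magi1, 0.31, named after its value was seen), beside 5.18%. Ctnnb1 (beta-catenin) and Ctnna1 (alpha-catenin), which link cadherins to the cytoskeleton in many cell types, had log2 fold changes of 0.17 and 0.024 with celecoxib and -0.017 and 0.061 with rofecoxib. Slit3, a ligand of roundabout receptors, and Ptpn11 (the phosphatase SHP2, which binds PECAM-1) had 0.14 and 0.12 with celecoxib. These genes are not confined to endothelium, and in whole aorta their counts come from several cell types.

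The genes whose levels over the 15 libraries were most like the members' mean were sought among 11883 other genes with at least 1 CPM on average. Symbols of predicted genes, clones and Rik names had been left out. They were Gimap6, Shank3, Afap1l1 and Sh3bp5 (r = 0.94 each), Unc45b, Gpr116 and Rasip1 (r = 0.93 each), Arap3 (r = 0.92), and Mmrn2 and Tie1 (r = 0.91 each). Of these 10, Gpr116, Rasip1, Mmrn2 and Tie1 stand in the pan-endothelial list. For single members, Robo4 was most like Eltd1 (r = 0.96), Cdh5 most like Gimap6 (r = 0.95) and Emcn most like Plvap (r = 0.95), the diaphragm protein of fenestrated endothelium. Sox18 was most like Vtn (r = 0.93), Pecam1 most like Nt5e (r = 0.93) and Egfl7 most like Nrarp (r = 0.92). Cldn5 was most like Prkch (r = 0.91), Sox17 most like Parvb (r = 0.88), Esam most like Gimap1 (r = 0.86) and Erg most like Tmem20 (r = 0.83). These r values are the highest of many and describe these libraries, which share depth and scaling.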

How the data were processed

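Polyadenylated RNA of 15 thoracic aortas was sequenced, and the authors deposited whole-number counts per gene with mm9 coordinates. The submitters' processing notes name CASAVA 1.8.2, STAR 2.5.2a and the build mm9. The counter, its strand use and its gene annotation were not given in the sources used here. Library totals lie within 0.0971% of each other, and how a common total arose is not stated. Libraries were built over 3 days with no day per library, so no batch term was fitted.

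Counts were filtered (filterByExpr, 15134 genes holding 99.95% of counts), scaled by TMM and tested with edgeR 4.0.16 (R 4.3.3; robust quasi-likelihood, all 15 libraries, Benjamini-Hochberg, threshold 0.05). Standard errors come from the F statistic, and intervals are 95%. CPM values are TMM-scaled; levels per kb use GENCODE M21 exon lengths. Relations used log2 CPM (prior count 2) and 100000 permutations (smallest p 1e-05). Alternatives were other scalings, filters, a replicate block, DESeq2 1.42.0, limma-voom 3.58.1 and leaving out libraries. The procedure was tested on simulated data. Members and lists were chosen with earlier results of these data known. Named list genes are the up to 4 of highest mean CPM, plus any gene called. Genes of the endothelial and junction lists at an unadjusted p under 0.05 against vehicle were named too, after their values were seen. Genes most alike are the 10 of highest r, with symbols of predicted genes, clones and Rik names left out beforehand.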

Additional observations from a re-analysis of the deposited data

Results flagged for a closer look

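One result among the members stood out within its group. Emcn in vehicle 4 was at 24.1 CPM, while the other 4 vehicle aortas lay between 13.9 and 15.5 CPM. The gap to the nearest of them was 0.847 of the group's whole range, above Dixon's 95% critical value of 0.71 for 5 samples. Tests were made on 30 groups (10 members in 3 groups), and chance flags about 1 in 20, so 1 flag is no more than chance gives. Vehicle 4 was also the highest of all 15 libraries for 5 members.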

How the results depend on the processing

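No member was called at an adjusted p under 0.05 under any scaling, filter, tool, block or left-out library that was run. Counts at an unadjusted p under 0.05 were 0 to 2 of 10 (2 with celecoxib in the fit of only the 10 libraries compared and without celecoxib 4). Over all genes, 2385 stood at that p for celecoxib against vehicle without celecoxib 4, beside 1896 (12.5%) in the main fit. With the replicate number as a block, the members' medians were -0.12 for celecoxib and -0.25 for rofecoxib against vehicle and -0.010 between the agents, and 0 members were called. Same-numbered libraries had correlations of deviations from -0.72 to 0.78, and 4 of 15 correlated best with their own number. These correlations cannot show whether same-numbered animals were handled together.

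Over all genes, the count called was 129 in DESeq2 for celecoxib against vehicle and 20 for celecoxib against rofecoxib, beside 0 in edgeR. Leaving out each library in turn gave 0 to 8 for celecoxib against vehicle, 0 to 1 for celecoxib against rofecoxib and 0 to 1 for any difference. Without the 2 farthest libraries 1 pair of members and 0 list relations passed, and without scaling factors 5 list relations did, which do not include smooth muscle with Cdh5 or Robo4 (adjusted permutation p = 0.0584 and 0.0616).

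Member log2 fold changes kept their sign in 578 results of the alternatives and turned in 52. For celecoxib against vehicle, Cldn5 turned to -0.023 without scaling factors, -0.032 with the block and -0.044 in limma-voom. Erg turned to 0.0037 (RLE), 0.0021 (upper quartile), 0.0073 (no filter), 0.0053 (at least 1 CPM), 0.0015 (block), 0.0038 (DESeq2) and 0.0011 (limma-voom). Sox17 turned to -0.0072 without scaling factors for celecoxib against rofecoxib. Without celecoxib 3 and rofecoxib 2 together, a choice made after seeing the data, Erg was 0.031, Sox17 0.064 and Emcn 0.081 for celecoxib against vehicle, Esam 0.020 and Sox17 0.062 for rofecoxib against vehicle, and Egfl7 -0.041 for celecoxib against rofecoxib.

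Leaving out each library in turn, values for celecoxib against vehicle ran from -0.17 to 0.15 (Cldn5), -0.040 to 0.049 (Erg), -0.11 to 0.062 (Sox17) and -0.23 to 0.080 (Emcn). For rofecoxib against vehicle they ran from -0.062 to 0.020 (Esam) and -0.18 to 0.061 (Sox17). For celecoxib against rofecoxib they ran from -0.17 to 0.079 (Cdh5), -0.092 to 0.15 (Sox17), -0.10 to 0.36 (Emcn), -0.27 to 0.038 (Robo4) and -0.089 to 0.17 (Egfl7). The cause of these changes was not tested. The lowest count of any member was 147 (Emcn, rofecoxib 2). The parts of depth and of the spread between animals in the intervals were not tested.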

Other observations

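Lymphatic endothelium, which shares Sox18 with blood endothelium, had 5 of its 7 listed genes tested and 0 called. With celecoxib 5 of 5 lay above 0 (median log2 fold change 0.31) and with rofecoxib 5 of 5 lay below 0 (median -0.078). Over all genes, 48.6% and 50.3% lay below 0. At an unadjusted p under 0.05 stood 0 of the 5 in each, beside 12.5% and 5.18% of all genes. The 5 genes share each library, and their sums overlapped: 41.6 to 84.9 CPM with vehicle, 37.1 to 80.9 with celecoxib and 38.4 to 69.2 with rofecoxib. Lyve1, a hyaluronan receptor of lymphatics and some macrophages, was at 17.7 ± 7.77 CPM with vehicle, 21.9 ± 7.56 with celecoxib and 17.7 ± 4.63 with rofecoxib. Mmrn1 was at 11.5 ± 4.11, 15.2 ± 5.001 and 10.6 ± 5.68 CPM, Flt4 (VEGFR-3) at 9.95 ± 2.33, 10.6 ± 3.47 and 9.42 ± 3.71, and Reln at 7.98 ± 3.40, 10.0 ± 7.20 and 7.83 ± 6.55. The lymphatic chemokine gene Ccl21a was at 0 in all libraries.

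Platelet and megakaryocyte genes, which mark blood in the vessel and share Pecam1 with endothelium, were low. Their 8 genes summed to 19.8 to 37.7 CPM with vehicle, 11.6 to 50.7 with celecoxib and 12.1 to 41.3 with rofecoxib, with median log2 fold changes of -0.26 and -0.31 and 0 called. Macrophage genes, 10 in number, had medians of -0.046 and -0.041 and fibroblast genes, also 10, had 0.024 and -0.057, with 0 called in either list. Nerve genes, 10 in number, had medians of 0.51 and 0.45 and summed to 92.3 to 409 CPM with vehicle, 82.3 to 844 with celecoxib and 88.9 to 609 with rofecoxib. Of the 9 lymphocyte genes 3 were tested (medians 0.16 and -0.60) and of the 6 mesothelial genes 1 was (-0.069 and -0.89), with 0 called. In the smooth muscle list the medians were 0.11 and 0.10.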
